A study of Dendrobium catenatum with 16 samples.

Results

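LOC110100117 is the Dendrobium catenatum gene annotated as furostanol glycoside 26-O-beta-glucosidase-like, and it was followed by its gene number through all 16 libraries of 2 RNA sequencing experiments. It is 1 of 23063 features in the count table of the first experiment and 1 of 28537 in that of the second, and no other gene of these tables is described as a furostanol glycoside glucosidase. The gene was chosen by its level in the 8 libraries of the second experiment, which differed widely, so those levels are given as a description, with no test. The rule of that choice did not use the first experiment, which was tested. Earlier results of these data were known when the gene was chosen.

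D. catenatum is an epiphytic orchid grown in sterile culture for its medicinal stems. The first experiment used plantlets 2 months old, kept for 3 weeks on a reduced-strength Murashige and Skoog medium with sucrose, agar and potato, to which distilled water, the synthetic auxin NAA (0.1 mg/L), the synthetic cytokinin 6-BA (1.0 mg/L) or both hormones at those doses had been added, with 2 libraries per group. The second used plantlets 9 months old on medium with 6-BA at 0, 0.5, 1.0 or 2.0 mg/L, sampled after 2 or 4 weeks, with 1 library for each dose and week. Every library was poly(A) RNA of young leaves, stems and shoots together, so fewer cells of a type and less RNA per cell cannot be told apart, and separate culture vessels are not stated for the first experiment's biological replicates. Where a vessel was shared, the p-values measure only the spread between these libraries.

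Furostanol glycosides are steroidal saponins that carry a glucose on the open side chain of the steroid. The enzyme for which this gene is named, first described from the spiral ginger Costus speciosus, removes that glucose, after which the side chain closes to a ring and a membrane-active, antifungal spirostanol saponin results. Such enzymes belong to the plant beta-glucosidases of glycosyl hydrolase family 1, many of which release a toxin, a hormone or a cell wall precursor from a stored glucoside. Substrate preference cannot be read from the family name, and the activity of the orchid protein was not measured here.

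The authors' table places LOC110100117 on scaffold NW_021319992.1 from 136710 to 143824, on the minus strand, as a protein-coding gene with a model length of 1488 bases in a span of 7115 bases. Its deposited annotation names the Costus speciosus enzyme and the glycosyl hydrolase family 1 domain, which 24 genes of the second table carry. The table holds 27 genes described as beta-glucosidases, of which 20 have that domain. None of the 13 features on the scaffold overlaps the gene. The nearest on either side are the DNA repair gene endonuclease III homolog 1 (LOC110100061, plus strand), 7204 bases away, and the ubiquitin ligase gene ARI7 (LOC110100080, minus strand), 7529 bases away.

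Libraries of the first experiment held 34289743 to 74461337 counts and those of the second 15090869 to 16257836. Both libraries of every pair differed by more than sampling noise (chi-square divided by its degrees of freedom, 16.8 to 28.6), and all were kept as separate replicates. The libraries of the second experiment differed widely in the summed level of 74 dividing-cell genes (mitotic cyclins, B-type cyclin-dependent kinases, kinesins, Aurora kinases and spindle checkpoint genes), from 1153 to 3703 CPM (the count per 1000000 counts of a library), against 2003 to 2355 CPM in the first.

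In young plantlets the gene was abundant and fell with 6-BA. Its level, in CPM after TMM scaling (which corrects library totals for composition), was 175 and 146 in the water libraries. With NAA alone it was 128 and 164. With 6-BA alone it was 53.5 and 60.4, below every other library of the experiment, while the NAA libraries overlapped the water libraries. With both hormones the levels were 88.0 and 113, above both 6-BA libraries and below every library without 6-BA. The group means were 160 ± 20.0 CPM for water, 146 ± 25.3 for NAA, 57.0 ± 4.87 for 6-BA and 101 ± 17.9 for both hormones (SD, n = 2 each).

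These levels rest on 2946 to 6837 counts of the gene per library, so counting error was small beside the spread between replicates. Per length, the deposited FPKM of the gene were 117 and 98.3 in the water libraries. They were 84.4 and 108 for NAA alone, 36.4 and 40.9 for 6-BA alone, and 60.4 and 76.4 for the combination. By FPKM the gene ranked 2 to 3 of the 27 beta-glucosidases in the libraries with water, NAA or both hormones, and 5 in both 6-BA libraries. In the water libraries 4.51% and 5.42% of the features had a higher FPKM, and in the 6-BA libraries 18.0% and 15.7% did.

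**Figure D1:**
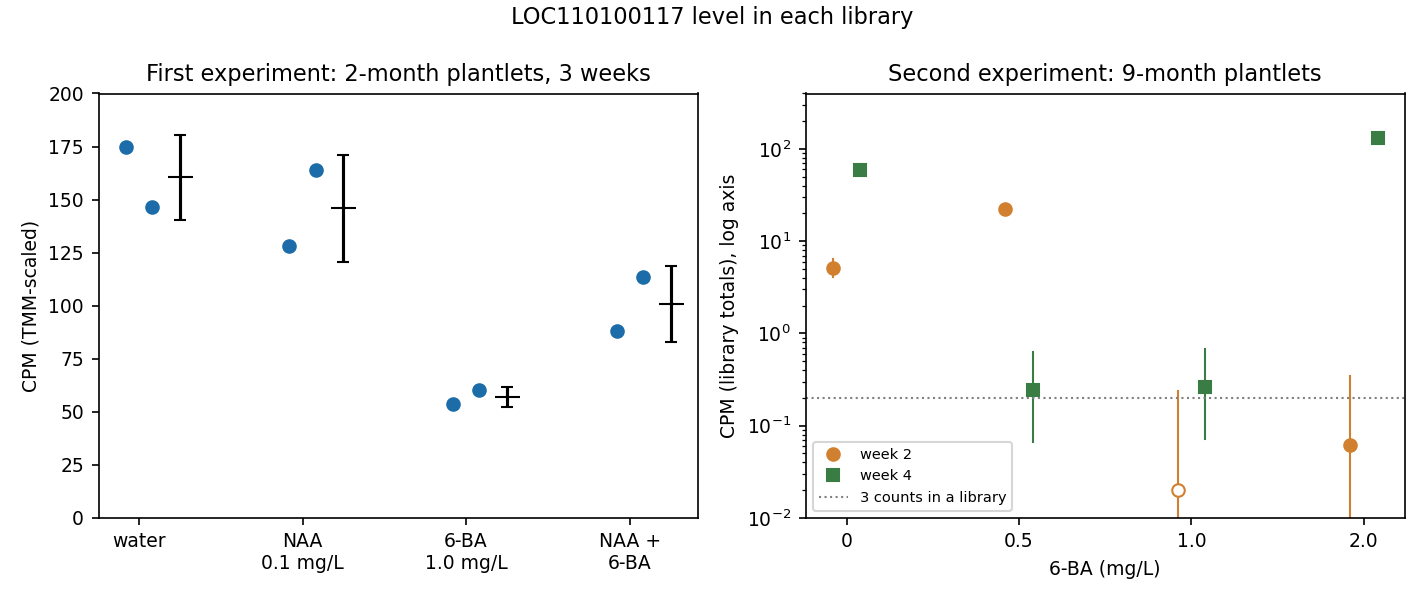
Level of LOC110100117 in each of the 16 libraries. Left, CPM after TMM scaling in the first experiment, with points for libraries and a cross bar for the mean ± SD (n = 2); both 6-BA libraries, at 53.5 and 60.4 CPM, lie lowest. Right, CPM by library totals on a log axis against the 6-BA dose in the second experiment, with exact 95% Poisson intervals, a dotted line at 3 counts and an open circle, drawn at the foot of the axis, for the library with 0 counts; the highest library is 2.0 mg/L at week 4 (131 CPM).

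With 6-BA against water the gene fell by 1.49 on the log2 scale (SE 0.16, 95% interval -1.84 to -1.14, edgeR adjusted p = 0.000642), to 0.355 of its level in water. In that comparison 7.31% of the 19420 genes tested (1420 genes, or 494 without 6-BA replicate 2) passed the threshold of 0.05 in either direction (4.2% as lower and 3.11% as higher), and 1.29% of the genes tested had a lower log2 fold change than LOC110100117. Against NAA alone, the 6-BA libraries were lower by a log2 fold change of -1.36 (SE 0.16, interval -1.71 to -1.01, edgeR adjusted p = 0.00103), where 7.42% of genes passed (4.49% as lower and 2.93% as higher). Each of these 2 comparisons stayed past the threshold under all 15 alternative settings, including each of the 8 libraries left out in turn.

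NAA alone gave a log2 fold change of -0.14 against water (SE 0.15, interval -0.48 to 0.20, edgeR adjusted p = 0.812). In that comparison 2.23% of genes passed (0.824% as lower and 1.41% as higher). The interval includes 0, and without NAA replicate 1 the value turned to 0.029.

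With both hormones the gene fell by 0.67 on the log2 scale against water (SE 0.15, interval -1.02 to -0.33, edgeR adjusted p = 0.0288), to 0.627 of the water level. In this comparison 7.08% of genes passed (4.06% as lower and 3.01% as higher). The call was lost without any 1 of 3 libraries: the edgeR adjusted p was 0.157 without water replicate 1 (log2 fold change -0.54), 0.0567 without water replicate 2 (-0.79) and 0.18 without replicate 1 of both hormones (-0.50).

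Adding 6-BA to NAA gave a log2 fold change of -0.54 (SE 0.15, interval -0.88 to -0.19), which missed the threshold with an edgeR adjusted p = 0.0787, beside 5.58% of genes past it (3.64% as lower and 1.94% as higher). Adding NAA to 6-BA gave 0.82 (SE 0.15, interval 0.47 to 1.17), with an unadjusted p = 0.000388, the gene ranking 17 among 19420 by p, and an edgeR adjusted p = 0.443. In that comparison 0.0% of genes passed in edgeR, 0 of 19420, while 1073 had an unadjusted p under 0.05 and DESeq2 called 39 genes, LOC110100117 among them (DESeq2 adjusted p = 0.000244). The range of the adjusted p over the alternatives for this comparison was 0.000244 to 1.

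The interaction term, which asks whether 6-BA acted differently with NAA than without it, was 0.96 on the log2 scale (SE 0.22, interval 0.47 to 1.45, unadjusted p = 0.00143, edgeR adjusted p = 0.121). The fitted log2 fold change with 6-BA was -1.49 without NAA and -0.54 with it, and the difference between them did not pass in edgeR, where 0.52% of genes (101) did. It passed in DESeq2 (adjusted p = 0.000782) and in edgeR without NAA replicate 2 (1.14, adjusted p = 0.0407). These 7 contrasts share libraries, so they are not independent of each other. In descending order the group levels were water, NAA, both hormones and 6-BA, and none of the 3 neighbouring pairs in that order passed the edgeR threshold.

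**Figure D2:**
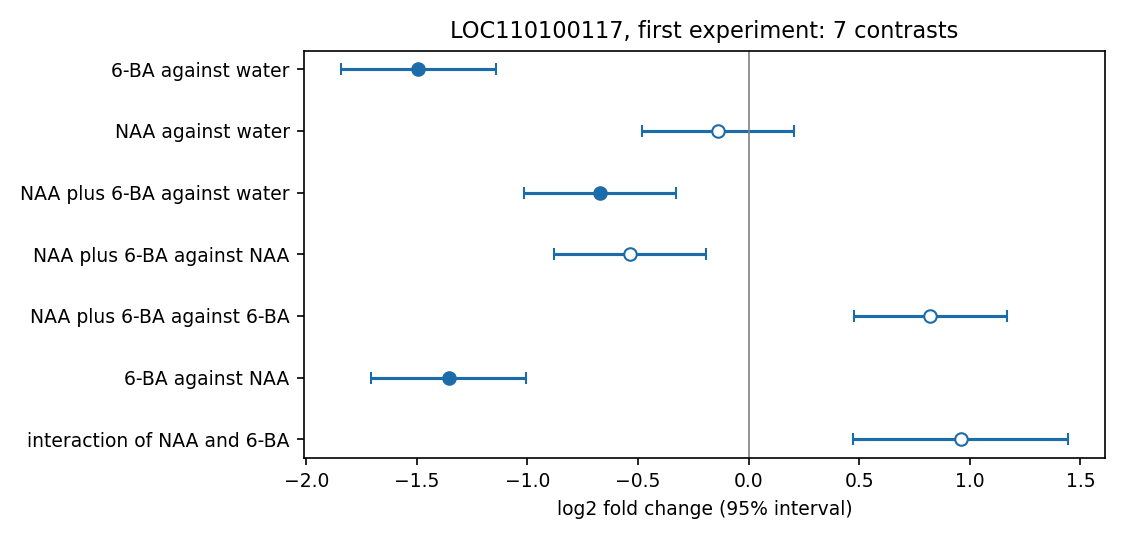
Log2 fold change of LOC110100117 in 7 contrasts of the first experiment, with 95% intervals from the edgeR fit; filled points have an adjusted p under 0.05. The 6-BA contrasts against water (-1.49) and NAA (-1.36) lie farthest from 0, and the interval for NAA against water includes 0.

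Other gene groups had members called in the same comparison, in which 3.11% of all genes tested rose and 4.2% fell. Of 30 heat shock protein genes tested with 6-BA against water, 0 rose and 5 fell, and their summed level was 5202 and 5425 CPM with water, 4263 and 4377 CPM with 6-BA. Of 44 genes described with root tissue words, 1 rose and 6 fell, although their summed level ranged only from 1280 to 1347 CPM over all 8 libraries. Of 72 dividing-cell genes tested 4 rose and 1 fell, and of 36 leaf photosynthesis genes 1 rose and 0 fell. Of 43 floral organ genes 1 rose and 2 fell. The part of these groups in the fall of LOC110100117 was not tested.

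Among its relatives, LOC110100117 was one of 6 beta-glucosidases that fell with 6-BA alone. Of the 27 beta-glucosidases 26 passed the filter on low counts. With 6-BA against water 2 of those rose, 6 fell and 18 did not pass, beside 3.11% of all genes that rose and 4.2% that fell, with a median log2 fold change of -0.13 against 0.00 over all genes tested. Without 6-BA replicate 2 the number called was 5 in place of 8. Beta-glucosidase 6-like (LOC110098121) had the largest fitted fall of the list, from 5.16 and 6.21 CPM with water to 0.164 and 0.281 CPM with 6-BA (log2 fold change -4.67, SE 0.35, edgeR adjusted p = 0.000137). That gene was far less abundant than LOC110100117, with a mean FPKM of 1.44 over the first experiment against 77.6.

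The other 4 that fell were beta-glucosidase 22 (LOC110109493, log2 fold change -1.02), a BoGH3B gene (LOC110107269, -0.82), beta-glucosidase 1-like (LOC110092217, -0.78) and a beta-glucosidase 18 (LOC110095267, -0.66), with edgeR adjusted p-values of 0.00378, 0.00181, 0.00313 and 0.0147. BoGH3B genes are named for a bacterial enzyme of another glycosyl hydrolase family. Beta-glucosidase 2-like (LOC110095182) rose by 1.78 and beta-glucosidase 6 (LOC110115944) by 0.64 on the log2 scale (edgeR adjusted p = 0.0102 and 0.0342). LOC110095182 was scarce, with 0.613 and 0.774 CPM with water and 2.03 and 2.73 CPM with 6-BA. With the replicate number as a block, 1 beta-glucosidase was called as higher and 6 as lower.

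The same list had 1 member higher and 0 lower with NAA alone, LOC110095182 (log2 fold change 1.82, edgeR adjusted p = 0.0217), beside 2.23% of all genes called. DESeq2 called 4 members in that comparison, and edgeR called 0 without water replicate 1, water replicate 2 or NAA replicate 1. With both hormones against water 3 rose and 7 fell, beside 3.01% and 4.06% of all genes. LOC110100117 was among the 7, with a smaller fall than LOC110098121 (-3.96), LOC110092217 (-0.79), the BoGH3B gene LOC110095762 (-0.79) and LOC110109493 (-0.70), and a larger one than LOC110107269 (-0.61) and LOC110095267 (-0.59). LOC110115944 (0.85), LOC110095182 (1.46) and a beta-glucosidase 18 gene (LOC110095269, 0.75) rose. The total of 10 called in this comparison ranged from 3 to 12 when 1 library was left out: it was 5 without water replicate 1, 3 without water replicate 2, 5 without replicate 1 of both hormones and 4 without replicate 2. With 6-BA against NAA 1 rose and 6 fell, beside 2.93% and 4.49% of all genes: LOC110100117, LOC110098121 (-3.96), putative beta-glucosidase 41 (LOC110107010, -1.03), LOC110095267 (-1.01), LOC110107269 (-0.94) and LOC110092217 (-0.77) fell and beta-glucosidase 11-like (LOC110113000, 3.79) rose. Replicates of LOC110113000 differed widely, with 0.712 and 0.179 CPM for NAA, 3.18 and 9.42 CPM for 6-BA and 11.6 and 5.36 CPM for water. With DESeq2 size factors in edgeR, and with limma, 0 beta-glucosidases were called as higher in that comparison. Of the 26, 1 rose and 6 fell when 6-BA was added to NAA, LOC110100117 not among them, beside 1.94% and 3.64% of all genes. That count of 7 became 4 without replicate 1 of both hormones, with the replicate number as a block, and with only the libraries compared.

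**Figure D3:**
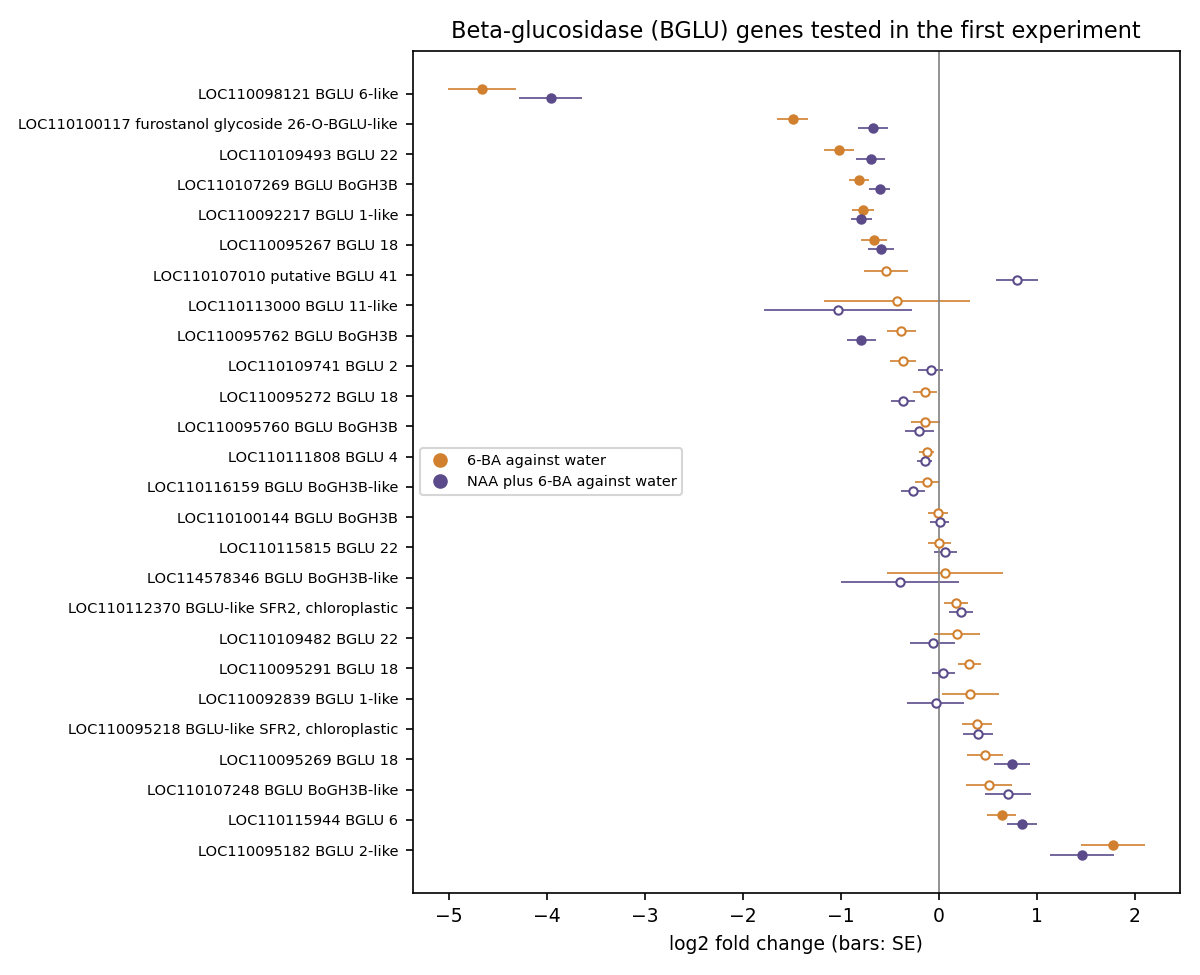
Log2 fold change of the 26 beta-glucosidase (BGLU) genes tested in the first experiment, with 6-BA (orange) and with both hormones (purple) against water; bars are standard errors and filled points have an edgeR adjusted p under 0.05. LOC110100117 stands second from the top, at -1.49 with 6-BA and -0.67 with both hormones.

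Saponins are built on a sterol skeleton, and genes that make it were looked at beside LOC110100117. The list of 47 sterol and saponin pathway genes, drawn by words from the descriptions, had 43 members tested, and with 6-BA against water 3 rose, 2 fell and 38 did not pass, beside 7.31% of all genes called, with a median log2 fold change of 0.01 against 0.00 over all genes. A delta(24)-sterol reductase gene (LOC110103862), whose enzyme reduces the sterol side chain, rose by 0.99 (SE 0.10, edgeR adjusted p = 0.000585). A cytochrome P450 90B2-like gene (LOC110114986), named for a rice enzyme of brassinosteroid synthesis, fell by 0.69 on the log2 scale (SE 0.13, edgeR adjusted p = 0.0122). The other 3 were cytochrome P450 90B2 (LOC110114079, 0.87), cycloartenol-C-24-methyltransferase 1 (LOC110116065, 0.47) and cytochrome P450 90D2 (LOC110107619, -0.80). By their names several of the 5 genes called belong to brassinosteroid synthesis or sterol alkylation. Whether any of them serves saponin synthesis was not tested. Left out in turn, water replicate 1, water replicate 2 and 6-BA replicate 2 each brought the count from 5 to 2, and 6-BA replicate 1 brought it to 1.

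With both hormones 4 of the 43 rose and 3 fell, beside 7.08% of all genes called, LOC110103862 (0.85, edgeR adjusted p = 0.00124) and LOC110116065 (0.52, edgeR adjusted p = 0.0114) having the lowest p. That count of 7 became 3 without water replicate 1, 1 without water replicate 2, 1 without replicate 1 of both hormones and 3 without replicate 2. With NAA alone 0 of 43 passed in edgeR and 2 in DESeq2, and the 2 members with the lowest p, LOC110116065 (0.44, unadjusted p = 0.00114) and 24-methylenesterol C-methyltransferase 2-like (LOC110110648, 0.43, unadjusted p = 0.00127), had edgeR adjusted p-values of 0.0507 and 0.0541.

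In the older plantlets LOC110100117 ranged from not detected to the level of the young ones. After 2 weeks its level, in CPM by library totals, was 5.17 without 6-BA (81 counts), 22.1 at 0.5 mg/L (358 counts), 0 at 1.0 mg/L (0 counts) and 0.0624 at 2.0 mg/L (1 count). After 4 weeks it was 58.6 without 6-BA (894 counts), 0.246 at 0.5 mg/L (4 counts), 0.265 at 1.0 mg/L (4 counts) and 131 at 2.0 mg/L (2045 counts). Thus 4 libraries held 81 or more counts of the gene and the other 4 held at most 4, and neither dose nor week alone separates these libraries. The order of doses also differed between the weeks: 2.0 mg/L was near 0 at week 2 and highest at week 4. The dose and week labels of these 8 libraries were not checked here. A response to dose or week is therefore not told apart from an exchange of labels between libraries. The same limit holds for every ratio between them.

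The exact 95% Poisson intervals of these levels were 4.11 to 6.43 CPM without 6-BA and 19.9 to 24.5 CPM at 0.5 mg/L at week 2. For the library with 0 counts, 3 counts would have been 0.194 CPM. At week 4 they were 54.9 to 62.6 CPM without 6-BA and 126 to 137 CPM at 2.0 mg/L. These intervals, and those of the ratios, cover counting error only and say nothing of the spread between plantlets, which 1 library per condition cannot give.

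Compared with the untreated library sampled at the same time, the gene was 4.28-fold higher at 0.5 mg/L at week 2 (exact 95% interval 3.35 to 5.51). At 1.0 mg/L it was at least 26.7-fold lower, taking 3 counts in that library as the floor, and the exact 95% interval of the ratio reached up to 0.0472 of the untreated level. At 2.0 mg/L it was 82.9-fold lower (interval 14.5 to 3314), from a single count. The gene thus stood higher at the lowest dose and lower at both larger doses at this week.

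At week 4 it was 238-fold lower at 0.5 mg/L (interval 92.8 to 877) and 221-fold lower at 1.0 mg/L (interval 86.1 to 814). At 2.0 mg/L it was 2.24-fold higher (interval 2.07 to 2.42). The libraries labelled 0.5 and 2.0 mg/L thus lay on opposite sides of their control at week 2 and again at week 4, but each had changed side.

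Between weeks, the gene was 11.3-fold higher at week 4 than at week 2 without 6-BA (interval 9.02 to 14.4) and 2102-fold higher at 2.0 mg/L (interval 377 to 83080, against 1 count). At 0.5 mg/L it was 89.9-fold lower (interval 34.8 to 332). At 1.0 mg/L it had 4 counts at week 4 and 0 at week 2, and the counting interval of that ratio includes 1.

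Many other genes moved in the same pairs of libraries. With 0.5 CPM added to each level, 4.44% of 19502 genes were at least 1 log2 unit higher at 0.5 than at 0 mg/L at week 2, as LOC110100117 was (2.00). At that week 11.4% and 13.8% were at least that much lower at 1.0 and 2.0 mg/L, beside log2 ratios of -3.50 and -3.33 for the gene. At week 4 the shares lower at 0.5 and 1.0 mg/L were 21.4% and 18.9% (the gene, -6.31 and -6.27) and the share higher at 2.0 mg/L was 3.33% (the gene, 1.15). From week 2 to week 4 the shares were 11.7% higher without 6-BA (3.38), 15.4% lower at 0.5 mg/L (-4.92) and 23% higher at 2.0 mg/L (7.87). At 1.0 mg/L 9.19% were higher, and the gene's ratio of 0.61 was under 1 log2 unit. These values chose the gene, so nothing is read from its place among them.

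Over the 8 older libraries its log2(CPM + 0.5) spanned 8.04 units, against a median span of 1.19 over 19502 genes with a mean of at least 1 CPM, and 22 genes (0.113%) spanned more. Wide differences among these libraries chose the gene, so nothing is read from its place in the order of spans. The genes just beside it in that order were the lipid-transfer protein gene DIR1 (LOC110107747, 8.10), named for an Arabidopsis protein of systemic resistance, and a proline-rich protein gene (LOC110110953, 8.02). In the first experiment, which the rule of choice did not use, its span was 1.67 units, with 476 of 17984 genes (2.65%) above it and a median span of 0.44.

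Per length, the gene had 34.2 FPKM without 6-BA and 77.5 FPKM at 2.0 mg/L at week 4, where it ranked 4 and 3 of 27 beta-glucosidases. At week 2 it had 3.42 FPKM without 6-BA (rank 16) and 13.9 FPKM at 0.5 mg/L (rank 7). In the other 4 libraries it had at most 0.178 FPKM and ranked 22 or 23. The 2 tables were normalized separately and the plantlets differed in age and weeks of treatment, so the 36.4 to 117 FPKM of the younger plantlets stand beside these values without a test.

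Its neighbours on the scaffold varied little over the same libraries. LOC110100061 ranged from 11.5 to 14.9 CPM over the older libraries and LOC110100080 from 65.8 to 88.1 CPM, and over the younger ones from 6.29 to 10.03 and from 76.3 to 95.6 CPM.

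The other 22 beta-glucosidases with a mean of at least 1 CPM spanned less than LOC110100117 over the older libraries. The gene was chosen for its wide differences among these libraries, so nothing is read from its place in that order. By mean FPKM the most abundant were beta-glucosidase 22 (LOC110109482, 337), beta-glucosidase 1-like (LOC110092217, 215) and beta-glucosidase 4 (LOC110111808, 36.1), and LOC110100117 was at rank 7 with 16.2. LOC110092217 was highest in a library where LOC110100117 was near 0, with 1867 CPM at 0.5 mg/L at week 4 against 200 CPM without 6-BA. LOC110109482 was at 1047 CPM in that library and at 145 CPM without 6-BA. LOC110111808 stayed between 53.1 and 87.9 CPM.

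After LOC110100117 the largest spans in the list were those of the BoGH3B-like gene LOC110107248 (6.55 log2 units) and the BoGH3B gene LOC110107269 (5.18). LOC110107248 had 46.4 CPM without 6-BA and 39.1 CPM at 2.0 mg/L at week 4, and 0 CPM at 1.0 mg/L at week 2 and 0.246 CPM at 0.5 mg/L at week 4. Its level in young plantlets was low, from 2.35 to 5.10 CPM, where LOC110100117 was abundant. Of 22 beta-glucosidases compared, 5 had a Pearson r of at least 0.9 with LOC110100117 over the 8 older libraries, beside 15% of all genes, and 0 of 24 had over the 8 younger ones, beside 0.84%.

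**Figure D4:**
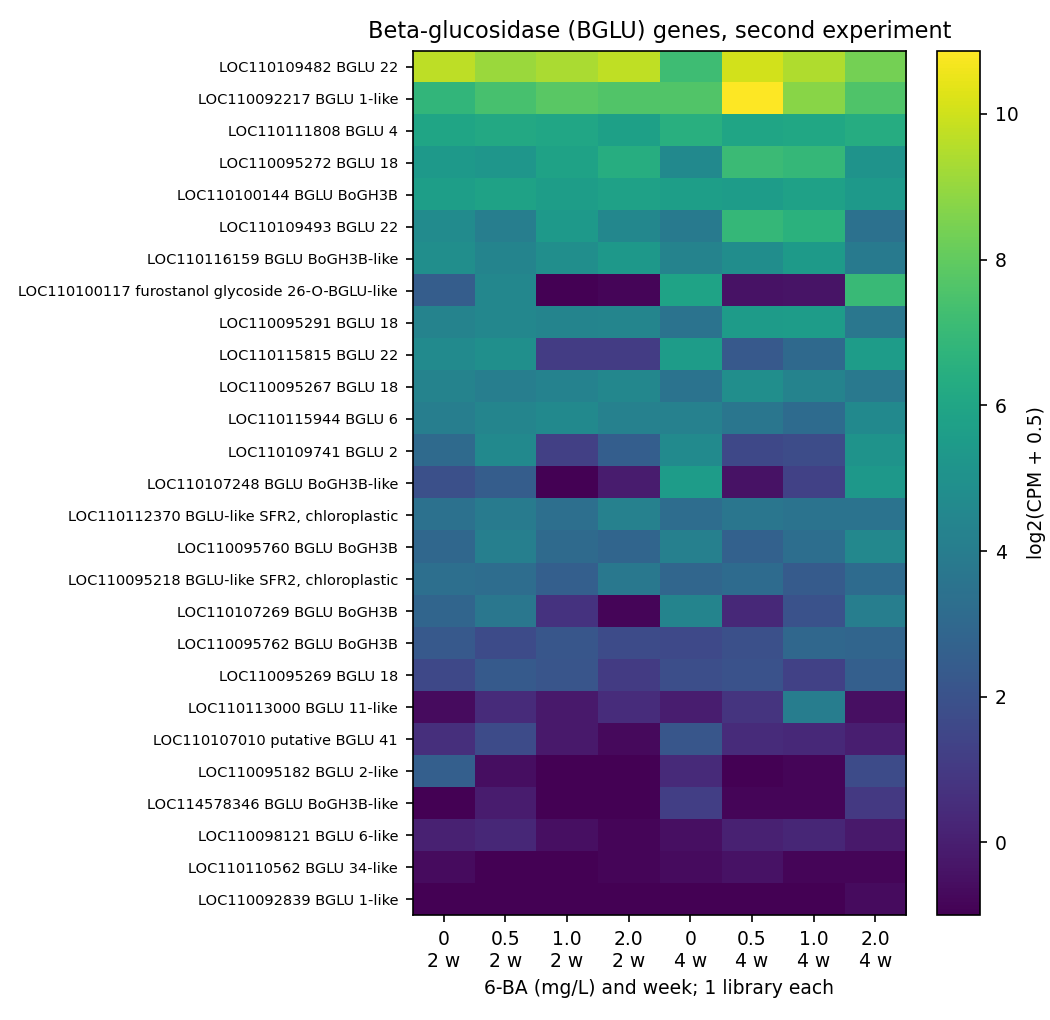
Levels of the 27 beta-glucosidase (BGLU) genes in the 8 libraries of the second experiment, as log2(CPM + 0.5) on a colour scale, with genes ordered by mean CPM. LOC110100117 is dark in 4 libraries (at most 4 counts) and bright at 0 and 2.0 mg/L at week 4 (58.6 and 131 CPM), while beta-glucosidases 22 and 1-like at the top are bright in every library.

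The level of LOC110100117 in the older plantlets moved with that of dividing-cell genes. At week 2 the dividing-cell list summed to 1869 CPM without 6-BA, 2492 at 0.5 mg/L, 1235 at 1.0 mg/L and 1153 at 2.0 mg/L. At week 4 it summed to 3399 without 6-BA, 1262 at 0.5 mg/L, 1306 at 1.0 mg/L and 3703 at 2.0 mg/L. The 4 libraries with at most 4 counts of LOC110100117 were those with the lowest sums, and the library highest for the gene was highest for the list.

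Cyclin-B1-1 (LOC110096329), a mitotic cyclin singled out after its values were seen, was at 0 CPM in 3 of those 4 libraries and at 0.125 CPM in the fourth, and at 39.9 to 85.5 CPM in the others. Other B cyclins, picked in the same way, did not vanish there. Cyclin-B1-2 (LOC110099071, r = 0.47) was at 97.9 to 167 CPM in those 4 libraries and at 142 to 196 CPM in the others. Putative cyclin-B3-1 (LOC110112667) had an r of 0.46. Of the 70 dividing-cell genes compared, 48 had an r of at least 0.9 with LOC110100117 over the older libraries, beside 2927 of 19501 genes (15%) in all. In the young plantlets 0 of 71 had, beside 151 of 17983 genes (0.84%), and cyclin-B1-1 was at 25.1 to 38.1 CPM while LOC110100117 fell with 6-BA. These correlations are over 8 libraries that share plantlet age, depth and medium, and they are a description only.

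**Figure D5:**
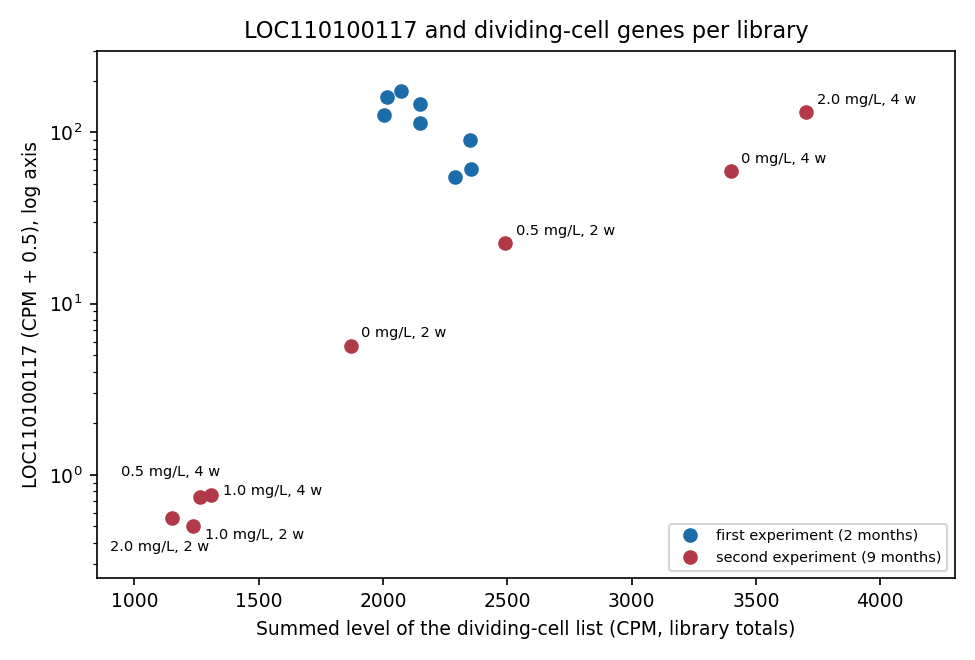
LOC110100117 (CPM + 0.5, log axis) against the summed CPM of 74 dividing-cell genes, 1 point per library. In the second experiment (red, labelled by 6-BA dose and week) both are low or high together, from 1153 to 3703 CPM for the list; in the first (blue) the list stays between 2003 and 2355 CPM while the gene varies from 54.2 to 174 CPM by library totals.

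Leaf photosynthesis genes were lowest in the library where LOC110100117 was highest. Their 37 members summed to 42082, 42792, 48647 and 54958 CPM at week 2 in ascending order of dose and to 25500, 32945, 36565 and 22790 CPM at week 4, and 1 member at most was at 0 in any library. The floral organ list summed to 558 to 776 CPM, with 21 to 33 of 70 members at 0.

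The root tissue and heat shock lists each had their 2 highest sums in the 2 libraries with most LOC110100117. In ascending order of dose the root tissue list summed to 1067, 1160, 983 and 930 CPM at week 2 and to 1335, 1076, 996 and 1401 CPM at week 4, with 1 to 4 of 45 members at 0. Of its 39 members compared, 8 had an r of at least 0.9 with the gene, beside 15% of all genes. SCARECROW 1 (LOC110109011) and SHORT-ROOT 1 (LOC110099657), named for regulators of root ground tissue and singled out after their values were seen, had r of 0.985 and 0.943. Other genes of such names, picked in the same way, did not all follow. SCARECROW (LOC110104798) had an r of -0.81, with 3.74 and 5.90 CPM at 0 and 2.0 mg/L at week 4. SHORT-ROOT-like genes had r of -0.19 (LOC114580874) and 0.78 (LOC110095590), and CASPARIAN STRIP INTEGRITY FACTOR 2 (LOC110113439) had 0.46. LOC110109011 was at 112 and 104 CPM at 0 and 2.0 mg/L at week 4 and at 20.1 to 22.5 CPM in the 4 libraries with at most 4 counts of LOC110100117. In the young plantlets LOC110109011 went the other way from the gene, with 56.5 and 50.3 CPM with water and 71.0 and 74.5 CPM with 6-BA. The heat shock list summed to 2568, 3043, 2242 and 2443 CPM at week 2 and to 3501, 2087, 2043 and 3122 CPM at week 4, with 1 to 3 of 31 members at 0 and 4 of 25 members compared at an r of at least 0.9. The part of cell composition in the levels of LOC110100117 was not tested.

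The sterol and saponin list summed to 1883 to 2520 CPM over the older libraries, lowest at 0.5 mg/L at week 4 and highest without 6-BA at week 4. Of 38 members compared, 7 had an r of at least 0.9 with the gene, beside 15% of all genes. The delta(24)-sterol reductase gene LOC110103862 was one of them (r = 0.92), and ranged from 0.596 CPM at 1.0 mg/L to 153 CPM at 2.0 mg/L, both at week 4. In the young plantlets its r was -0.87, with 18.2 and 17.1 CPM with water and 34.4 and 36.7 CPM with 6-BA. There 0 of 42 members compared had an r of at least 0.9, beside 0.84% of all genes. Of the 38 compared over the older libraries, 0 had an r of -0.9 or lower. Some members, picked after their values were seen, went the other way. LOC110116065 (r = -0.88) was at 182 and 186 CPM at 0 and 2.0 mg/L at week 4. In the 4 libraries with at most 4 counts of LOC110100117 it was at 435 to 748 CPM. Isopentenyl-diphosphate Delta-isomerase I (LOC110103277) had an r of -0.86.

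No gene was among the 5 most like LOC110100117 in both experiments. Over the 8 older libraries the highest r of log2(CPM + 1) were those of an ABC transporter G family member 31 gene (LOC110096321, r = 0.999), an ethylene-responsive factor FZP-like gene (LOC110109455, 0.998), named for a rice regulator of spikelet meristems, the mitotic spindle checkpoint gene BUBR1 (LOC110110324, 0.996) and 2 uncharacterized genes (LOC110105001, 0.996, and LOC110108116, 0.995). LOC110096321 ran from 65.2 CPM at 2.0 mg/L at week 2 to 197 CPM at 2.0 mg/L at week 4, a much smaller range than that of LOC110100117. In the younger libraries the same gene had an r of -0.90.

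Over the 8 younger libraries the highest r were those of a LOB domain-containing protein 12-like gene (LOC110099306, 0.993) and a putative transcription factor bHLH086 gene (LOC110110399, 0.983), followed by a glycoprotein acetylglucosaminyltransferase gene (LOC110102613, 0.981), ATP synthase subunit d (LOC110102648, 0.978) and a mitochondrial TIM22-4 import gene (LOC110102552, 0.974). LOC110099306 had 3.52 and 2.74 CPM with water and 0.727 and 0.805 CPM with 6-BA. The genes alike in both were led by the quinone reductase gene FQR1 (LOC110113039, r = 0.964 in the younger and 0.942 in the older libraries), the uncharacterized LOC110102985 (0.937 and 0.972) and a 2-isopropylmalate synthase 2 gene (LOC110092446, 0.932 and 0.943), whose enzyme opens leucine synthesis. LOC110092446 was at 0 CPM in the same 4 older libraries in which LOC110100117 had at most 4 counts, and at 0.255 to 5.33 CPM in the others. In all 15 of 17151 genes compared had an r of at least 0.9 in both experiments.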

How the data were processed

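Poly(A) RNA of 16 libraries was sequenced. Per the submitters' processing notes, the tools were edgeR, with no version, Cufflinks 2.2.2 and HISAT2 2.0.6. Build, annotation release and strandedness: not given in the sources used here. Raw counts per gene were deposited by the authors for each experiment. FPKM, gene positions and descriptions stand in the authors' deposited tables too, per the file headers. Of the columns, 0 belonged to other samples.

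Counts of the first experiment were fitted in R 4.3.3 with edgeR 4.0.16: filterByExpr, TMM scaling, 4 group means over 8 libraries, and quasi-likelihood tests with Benjamini-Hochberg adjustment over 19420 genes at 0.05 (biological coefficient of variation 0.115, model-based standard errors). The code was tested on simulated data. Levels of the second experiment, with 1 library per condition, are CPM by library totals, without tests; 0.5 CPM was added for log2 ratios, and 3 counts was the floor per library. Its log2 ratios cover 10 pairs of libraries. Deposited FPKM served to rank levels between genes. Likeness is Pearson's r of log2(CPM + 1) among genes with a mean of at least 1 CPM.

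The gene and the lists were chosen with earlier results of these data known. Lists were drawn by words in the descriptions; 46 glucan endo-1,3-beta-glucosidase genes and relatives, which the word beta-glucosidase also takes in, were kept as a separate list. Of these 37 were tested, and with 6-BA against water 1 rose and 2 fell. Named genes are the gene itself, its neighbours on the scaffold, the 5 most like it in each experiment and the 3 most like it in both, the 3 most abundant beta-glucosidases, the 3 with the widest range and those called wherever the gene is called, and the 2 sterol genes with the lowest p against water; others are named as chosen after their values were seen or complete a short count. A rule on protein identity was not used here.

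Alternatives were other size factors, library totals, no filter, a replicate block, each library left out, only the libraries compared, DESeq2 1.42.0, limma 3.58.1 on log2(FPKM + 1), and for the second experiment TMM scaling, other added values and FPKM. Replicate numbers do not pair libraries by the labels. Tables and plots used Python 3.11.15, NumPy 2.4.6, pandas 2.3.3, SciPy 1.17.1 and Matplotlib 3.10.9.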

Additional observations from a re-analysis of the deposited data

Results flagged for a closer look

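The change in LOC110100117 with 6-BA had opposite directions after 2 and 4 weeks of culture of the older plantlets at 2 doses. At 0.5 mg/L its log2 ratio to 0 mg/L, with 0.5 CPM added, was 2.00 at week 2 and -6.31 at week 4. At 2.0 mg/L it was -3.33 at week 2 and 1.15 at week 4. Each value comes from 1 library against 1 library, so the difference between weeks was not tested, and the gene was chosen from these values. The labels of these libraries were not checked here, so an exchange of labels between them is not told apart from a difference between weeks.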

How the results depend on the processing

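With 6-BA against water the log2 fold change of LOC110100117 was -1.61 to -1.36 and with 6-BA against NAA -1.52 to -1.17 over 15 alternatives each, past the threshold in all of them (edgeR, DESeq2 or limma adjusted p up to 0.00743 and 0.012). For NAA against water, leaving out 1 library gave -0.32 to 0.029, the sign turning without NAA replicate 1. For both hormones against water the range was -0.87 to -0.50 and the call was lost without water replicate 1 (-0.54), water replicate 2 (-0.79) or replicate 1 of both hormones (-0.50). For both hormones against NAA it was -0.73 to -0.35, and the gene passed without NAA replicate 1 (-0.69, edgeR adjusted p = 0.0472) and in DESeq2 (-0.54, adjusted p = 0.00669). For both hormones against 6-BA it was 0.63 to 0.99, passing in DESeq2 (0.82). For the interaction it was 0.77 to 1.14, passing without NAA replicate 2 (1.14) and in DESeq2 (0.96). The causes were not tested. DESeq2 called 2011 genes with 6-BA against water, 378 for the interaction and 782 with NAA against water, where edgeR called 1420, 101 and 434. Fits on only the libraries compared were not run for the interaction, which uses all groups.

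The replicate numbers are only numbers in the labels: deviations of same-numbered libraries correlated between -0.151 and 0.206. With the number as a block the gene's log2 fold change was -1.51 with 6-BA against water (edgeR adjusted p = 0.0014), -0.15 with NAA, -0.69 with both hormones against water (adjusted p = 0.0293), -0.54 against NAA, 0.82 against 6-BA, -1.35 with 6-BA against NAA and 0.97 for the interaction, with no change of call. The block moved the genes called for the interaction from 101 to 37 and those called with 6-BA against water from 1420 to 1170.

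Leaving out 1 library moved the genes called further. With 6-BA against water they were 799 and 494 without 6-BA replicates 1 and 2 and 707 and 603 without water replicates 1 and 2. With NAA against water they were 112 and 182 without water replicates 1 and 2 and 208 without NAA replicate 1. With both hormones against water (1374) they were 637 and 644 without replicates 1 and 2 of both hormones and 729 and 569 without those of water. With 6-BA against NAA (1440) they were 710 and 459 without 6-BA replicates 1 and 2 and 838 without NAA replicate 1. With both hormones against NAA (1083) they were 387 and 617 without replicates 1 and 2 of both hormones and 581 without NAA replicate 1. For the interaction they were 0 without either water library, 4 and 28 without 6-BA replicates 1 and 2, 7 and 204 without NAA replicates 1 and 2 and 5 without replicate 1 of both hormones.

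In the second experiment 7 of the 10 log2 ratios, those with 4 or fewer counts on a side, depend on the value added, because it sets the floor. With 1 CPM or 0.1 CPM added in place of 0.5, the ratio to 0 mg/L at week 2 was -2.63 or -5.72 at 1.0 mg/L and -2.54 or -5.02 at 2.0 mg/L. At week 4 it was -5.58 or -7.41 at 0.5 mg/L (-5.69 with FPKM) and -5.56 or -7.33 at 1.0 mg/L. Week 4 against week 2 was -4.21 or -6.005 at 0.5 mg/L and 6.96 or 9.66 at 2.0 mg/L (7.15 with FPKM), and 1.87 at 1.0 mg/L with 0.1 CPM. None of the 10 changed direction under the 4 alternatives.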
